A study of Mus musculus with 6 samples.

Results

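Transcripts of 10 genes that carry or restrain Smad signalling were followed in biliary epithelial cells, which form the lining of bile ducts, from livers of Control and Sox9cKO mice. The genes were Smad1, Smad2, Smad3, Smad4, Smad5, Smad6, Smad7, Ski, Skil and Smurf1, taken by name, and all 10 were found among the 25302 rows of the expression table. All 10 exceeded the minimum for testing, a mean of 10 normalized reads, so none was lost to the filter. A normalized read is a sequenced read assigned to a gene and divided by a size factor of its library. The series held 3 Control libraries (genotype Sox9fl/fl) and 3 Sox9cKO libraries (genotype Sox9fl/fl:AlbCre+/-), each of total RNA depleted of ribosomal RNA. Both genotypes carried floxed Sox9 alleles, and the Sox9cKO mice alone carried AlbCre, a Cre recombinase under the albumin promoter, so effects of Cre and of Sox9 loss cannot be told apart. The albumin promoter is active in the embryonic precursors of both hepatocytes and biliary cells. The age of the mice is not given in the sources used here. The labels do not say whether the libraries came from separate animals, so p-values measure the spread between these libraries, which may be partly technical.

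Smad proteins carry signals from receptors of the TGF-beta superfamily to the nucleus. Smad2 and Smad3 are phosphorylated by TGF-beta and activin receptors, whereas Smad1 and Smad5 are phosphorylated by BMP receptors, and both kinds join Smad4, the common partner, before they bind DNA. Smad6 and Smad7 are inhibitory Smads that block the receptors and are themselves induced by the pathway. Ski and its relative SnoN (gene Skil) are nuclear repressors that bind Smad2, Smad3 and Smad4, and Smurf1 is a ubiquitin ligase that marks Smads and receptors for degradation. In bile ducts, TGF-beta and activin are known for their part in duct formation and in fibrosis.

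The libraries held between 11883496 and 16191990 reads assigned to genes. Sox9, the targeted gene, lay between 6043 and 6293 normalized reads in Control and between 3165 and 3363 in Sox9cKO, so each library followed its label and the transcript was reduced, not absent. Among biliary markers, Krt19 lay between 11480 and 26648 normalized reads and Epcam between 5501 and 8249. Hepatocyte and endothelial markers were also present in all 6 libraries, and none of either list was at 0. The 12 endothelial markers summed to 15696, 50512 and 2245 normalized reads in the Control libraries, by replicate number, against 39227, 52384 and 8571 in the Sox9cKO libraries. The 12 hepatocyte markers summed to between 21376 and 33749 in Control and between 42611 and 72098 in Sox9cKO, with 4 of 12 higher by the test, while Alb itself overlapped between the groups (17384 to 27683 against 21399 to 35363). The hepatocyte sum separated the groups through Apob, and without it the sums overlapped (19134 to 30437 against 25428 to 39534). What was left of the sum was mostly Alb. Serpina1c, Fgb and Tat were the other hepatocyte markers that passed, and each was higher in all Sox9cKO libraries. The leukocyte markers summed to between 1097 and 1274 in Control and between 1552 and 1860 in Sox9cKO, a gap due to Csf1r, the only 1 of 8 tested to pass. The other 7 had negative log2 fold changes (median of the 8, -0.57), and without Csf1r the sum was lower in Sox9cKO (299.5 to 569 against 222 to 287). The 12 immediate early genes, which respond within minutes to cell handling and to signals, summed to between 134696 and 189416 in Control and between 95882 and 113338 in Sox9cKO, with 10 of 12 negative, 1 (Atf3) lower by the test and 1 (Dusp1) higher. Beside these marker counts, 2.97% of all 17153 tested genes passed the test, and 7860 had negative log2 fold changes. In bulk RNA, fewer cells of a type and less RNA per cell cannot be told apart. The part of other cell types and of handling in the values below was not tested.

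Of the 10 genes, Smad3 had the highest level per kilobase of exon and the largest log2 difference between the genotypes. Promoter sequences from RefSeq (mouse build GRCm38.p6, 250 bases before to 50 bases after each transcription start) were matched for 6 of the 10 genes, namely Smad1, Smad3, Smad5, Smad6, Ski and Smurf1. Smad2, Smad4, Smad7 and Skil are named only. A pair of sequences is shown because they belong to the gene with the most separated values and to the inhibitory Smad gene whose start holds the classical Smad-binding palindrome. The first is the upstream stretch of Smad3, on the minus strand at chr9:63757995-63758244, where capitals mark its single short Smad box (GTCT, or AGAC on the other strand). The second is the start of Smad6, on the minus strand at chr9:64022045-64022074, where capitals mark the palindrome GTCTAGAC.
Smad3: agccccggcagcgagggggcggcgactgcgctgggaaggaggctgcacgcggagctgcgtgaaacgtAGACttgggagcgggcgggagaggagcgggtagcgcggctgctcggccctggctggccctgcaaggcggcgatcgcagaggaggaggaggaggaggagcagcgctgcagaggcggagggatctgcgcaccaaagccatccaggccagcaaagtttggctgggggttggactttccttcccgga
Smad6: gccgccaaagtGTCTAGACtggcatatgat

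The Smad3 stretch was 69.2% G and C. The short Smad box was found in 88% of the 32851 promoters of the same length, so its presence in Smad3, Smad5, Smad6 and Smurf1 does not set these genes apart. The palindrome GTCTAGAC, which contains the box on both strands, was found in 0.213% of promoters and, among the 6 genes, in Smad6 alone, where it spans the start. The GC-rich Smad element GGCGCC was found in Smad5 and Ski and in 11.9% of promoters. The core of the SOX motif (ACAAT, or ATTGT on the other strand) was found in Smad6 alone, 32 bases before the start, and in 31% of promoters. These matches are letters in a window of the reference, and no binding was measured.

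Smad3 (ENSMUSG00000032402), the TGF-beta and activin Smad that binds DNA directly, had 4777, 6624 and 7026 normalized reads in Control replicates 1 to 3. In Sox9cKO replicates 1 to 3 it had 8709, 9987 and 11885. All 3 Sox9cKO values lay above all 3 Control values, and replicate 1 was the lowest and replicate 3 the highest of each genotype. The means were 6142 ± 1199 and 10194 ± 1598 (SD, n = 3), so that Sox9cKO stood at 166% of Control. On the log2 scale the difference was 0.74 (standard error 0.19, 95% interval 0.30 to 1.18), and it did not pass the threshold of 0.05 (limma, Benjamini-Hochberg adjusted p = 0.0954 over 17153 genes). With the replicate number as a block, which compares same-numbered libraries with each other, the same difference had a 95% interval of 0.50 to 0.98 and passed (limma, adjusted p = 0.00939). The log2 differences within the same-numbered pairs were 0.87, 0.59 and 0.76. Without the pair numbered 3 the blocked difference was 0.73 and no longer passed (limma, adjusted p = 0.0985), whereas without pair 1 or pair 2 it did. Without Control replicate 1, the lowest library, the difference in the fit with no block was 0.57 (limma, adjusted p = 0.255). The endothelial sum was higher in Sox9cKO in each pair, as Smad3 was, but its replicate 3 was the lowest of each genotype where that of Smad3 was the highest. The hepatocyte sum, largely through Apob, was also higher in all Sox9cKO libraries. Its highest library was replicate 1 in Control, where Smad3 was lowest, and replicate 3 in Sox9cKO, where Smad3 was highest. The immediate early sum was lower in all Sox9cKO libraries, and in Sox9cKO it had the reverse order of Smad3 (113338, 107355 and 95882 in replicates 1 to 3). The part of these other signals in the Smad3 difference was not tested.

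Smad2 (ENSMUSG00000024563), the partner of Smad3 downstream of the same receptors, had 1110, 1039 and 1200.5 normalized reads in Control replicates 1 to 3. Its Sox9cKO values were 977, 1108 and 1191. The groups overlapped throughout, with a log2 fold change of -0.03 and a 95% interval of -0.33 to 0.26 (limma, adjusted p = 0.924), so a change of the size of the Smad3 mean lay outside the interval. The reads of Smad3 per read of Smad2 within a library, a ratio that does not depend on the size factors, were 4.30, 6.37 and 5.85 in Control and 8.91, 9.02 and 9.98 in Sox9cKO. The ratio was chosen after the values were seen. Its groups did not overlap (means 5.51 ± 1.08 and 9.30 ± 0.587, SD, n = 3; exact permutation test, two-sided p = 0.1, the smallest that 3 against 3 libraries allow).

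**Figure D1:**
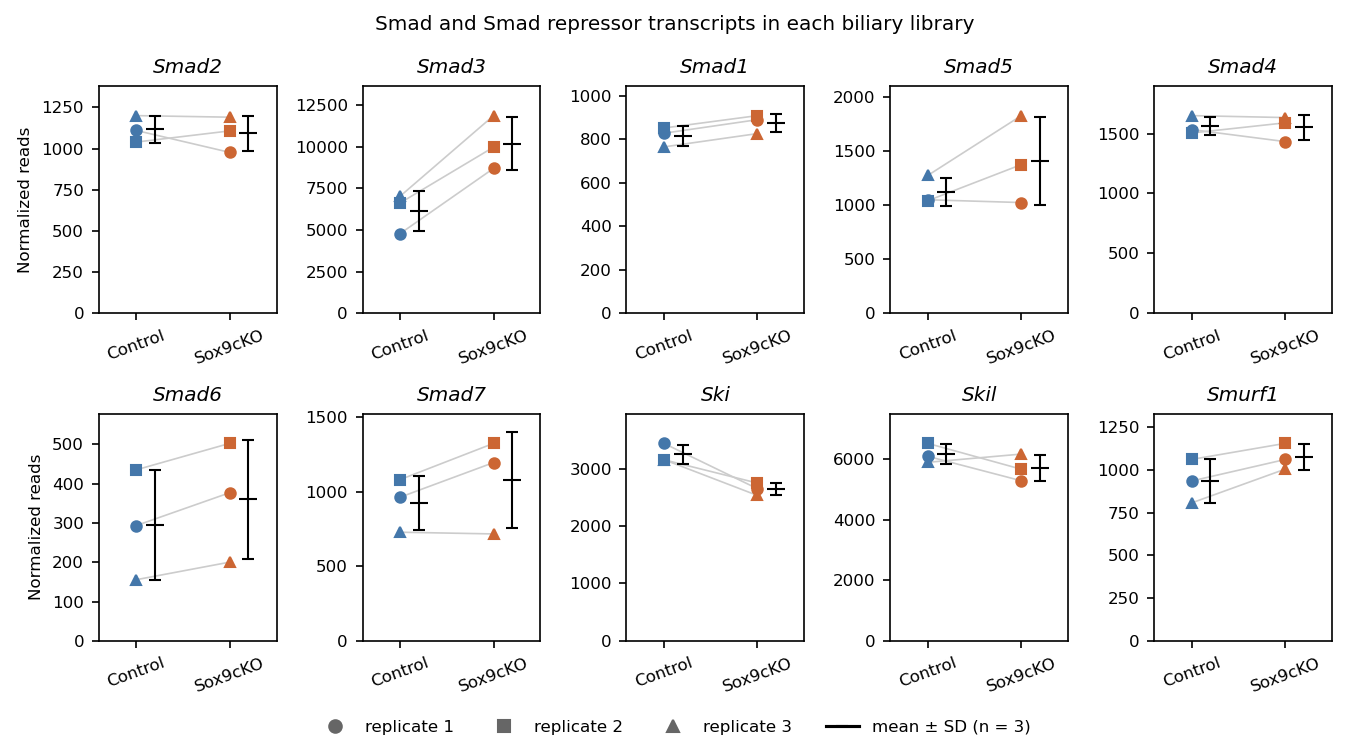
Normalized reads (vertical axes, each from 0) of the 10 genes in the 3 Control and 3 Sox9cKO libraries; markers give the replicate number, grey lines join same-numbered libraries, and black bars are the mean and SD of 3 libraries. Smad3 lies higher and Ski lower in all 3 Sox9cKO libraries, and the other 8 genes overlap.

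Smad1 (ENSMUSG00000031681), a BMP Smad, had 828, 852 and 765 normalized reads in Control replicates 1 to 3. Its Sox9cKO values were 890, 909 and 826. The groups overlapped, although each same-numbered pair was higher in Sox9cKO, by 0.10, 0.09 and 0.11 on the log2 scale. The fold change over all libraries was 0.10 on that scale, with a 95% interval of -0.16 to 0.36 (limma, adjusted p = 0.687). Quantile normalization, which forces the libraries to the same distribution, turned it to -0.02. Replicate 2 was highest and replicate 3 lowest in each genotype, as in the endothelial sum. The part of endothelial RNA in the Smad1 values was not tested.

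Smad5 (ENSMUSG00000021540), the other BMP Smad measured here, had 1047, 1038 and 1271 normalized reads in Control replicates 1 to 3. In Sox9cKO replicates 1 to 3 the values were 1021, 1371 and 1824. The Sox9cKO libraries were spread widely (mean 1405 ± 403, against 1118 ± 132 in Control, SD, n = 3), with the lowest below every Control value and the highest above every one. Their log2 difference from Control of 0.30 had a 95% interval of -0.21 to 0.80 (limma, adjusted p = 0.539). It was 0.09 without Sox9cKO replicate 3 and 0.51 without Sox9cKO replicate 1. Smad9, the third BMP Smad, is no part of the 10 genes and was barely detected, with 10.9, 12.1 and 9.22 normalized reads in Control and 4.97, 4.73 and 2.26 in Sox9cKO. It was below the minimum for testing.

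Smad4 (ENSMUSG00000024515), the partner that both branches share, was among the steadiest of the 10 genes. It had 1533, 1504 and 1650 normalized reads in Control replicates 1 to 3, against 1433, 1590 and 1634 in Sox9cKO. Sox9cKO stood at 99.3% of Control, and the 95% interval of the log2 difference ran from -0.26 to 0.24 (limma, adjusted p = 0.974). The reads of Smad3 per read of Smad4, also chosen after the values were seen, were 3.12, 4.40 and 4.26 in Control and 6.08, 6.28 and 7.28 in Sox9cKO, with no overlap (exact permutation test, two-sided p = 0.1, the smallest possible here).

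Smad6 (ENSMUSG00000036867), an inhibitor mainly of BMP signalling, had the fewest reads of the 10 genes. Control replicates 1 to 3 held 293, 435 and 156 normalized reads, and Sox9cKO replicates held 377, 503 and 200.4. Replicate 2 was highest and replicate 3 lowest in both genotypes, and the spread between replicates (SD 140 and 152) exceeded the difference between the means of 295 and 360.1. That difference was 0.31 on the log2 scale, with a 95% interval of -0.74 to 1.36 (limma, adjusted p = 0.774). Within same-numbered pairs Sox9cKO was higher in all 3, by 0.36, 0.21 and 0.36 on the log2 scale, and with the block the interval narrowed to 0.01 to 0.61 without passing the threshold (limma, adjusted p = 0.181). Without Control replicate 3 the difference in the fit with no block was -0.09. The sum of the endothelial markers had the same order of replicates in each genotype, with replicate 2 highest and replicate 3 lowest, and was likewise higher in Sox9cKO within each pair. All 12 endothelial markers had positive log2 fold changes (median 1.09), and none passed the threshold without the block. The part of endothelial RNA in the Smad6 values was not tested.

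Smad7 (ENSMUSG00000025880), which blocks the receptors of both branches, followed a similar order. It had 964, 1082 and 729 normalized reads in Control replicates 1 to 3, against 1197, 1326 and 718 in Sox9cKO. Replicate 2 was again highest and replicate 3 lowest in both genotypes, and the groups overlapped. A log2 difference of 0.19 had a 95% interval of -0.41 to 0.80 (limma, adjusted p = 0.755). Pairs 1 and 2 were higher in Sox9cKO by 0.31 and 0.29 on the log2 scale, and pair 3 differed by -0.02. The endothelial sum had the same order of replicates in each genotype. It was higher in Sox9cKO by the smallest ratio in pair 2 and by the largest in pair 3. The part of endothelial RNA in the Smad7 values was not tested. Leaving out 1 library moved the Smad7 difference to between 0.02 (without Sox9cKO replicate 2) and 0.46 (without Sox9cKO replicate 3).

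**Figure D2:**
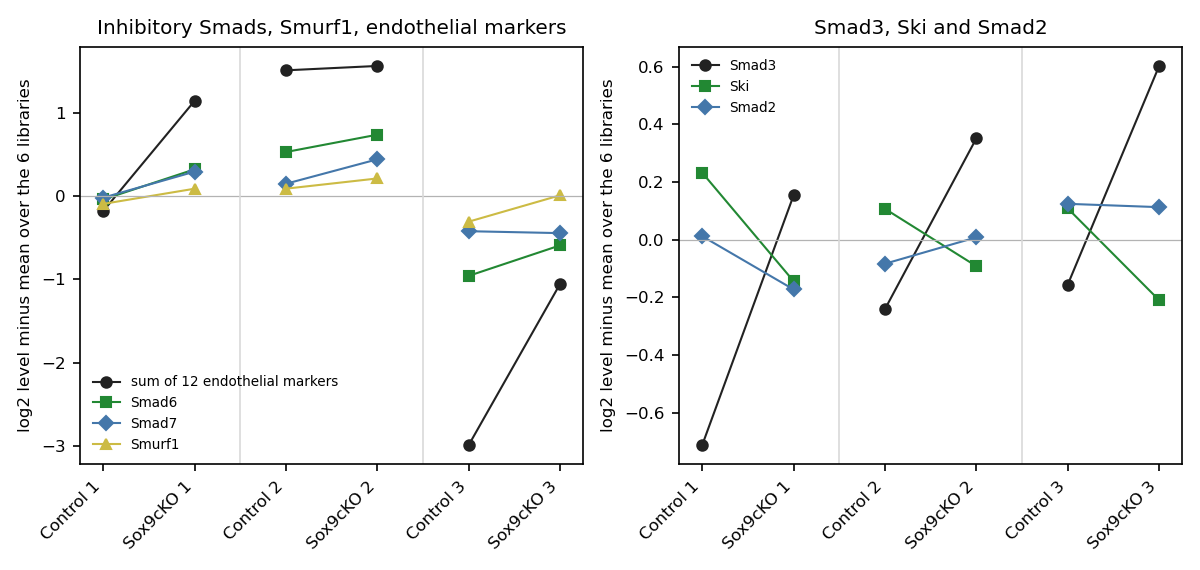
Levels in each library on a log2 scale, as the difference from the mean over the 6 libraries (vertical axes), with same-numbered Control and Sox9cKO libraries side by side and joined. On the left, Smad6, Smad7, Smurf1 and the sum of 12 endothelial markers are all lowest in Control replicate 3, apart from Smad7, which is lowest in Sox9cKO replicate 3; on the right, Smad3 is higher and Ski lower in Sox9cKO in each pair, with Smad2 for comparison.

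Ski (ENSMUSG00000029050), the repressor that holds Smad complexes inactive on DNA, was the other gene whose groups did not overlap. It had 3440.5, 3155 and 3158 normalized reads in Control replicates 1 to 3. Its Sox9cKO values were 2650.4, 2748 and 2532, all below the lowest Control value. The means were 3251 ± 164 and 2644 ± 108 (SD, n = 3), so that Sox9cKO stood at 81.3% of Control. This difference of -0.30 on the log2 scale (standard error 0.10, 95% interval -0.53 to -0.06) did not pass (limma, adjusted p = 0.184). With the block it did not pass either (limma, adjusted p = 0.107), and over the 18 alternative analyses the difference lay between -0.38 and -0.26 with adjusted p-values from 0.0691 to 0.446.

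Skil (ENSMUSG00000027660), the gene of the related repressor SnoN and itself a known early target of Smad3, had 6095, 6523 and 5896 normalized reads in Control replicates 1 to 3. Its Sox9cKO values were 5287, 5668 and 6169. Pairs 1 and 2 were lower in Sox9cKO by 0.21 and 0.20 on the log2 scale, pair 3 was higher by 0.07, and the groups overlapped. Over all libraries the log2 difference was -0.11, with a 95% interval of -0.37 to 0.14 (limma, adjusted p = 0.648).

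Smurf1 (ENSMUSG00000038780), the ubiquitin ligase, had 935, 1061 and 806 normalized reads in Control replicates 1 to 3, against 1061, 1155 and 1004 in Sox9cKO. Control replicate 2 lay above Sox9cKO replicate 3 and level with Sox9cKO replicate 1, so the groups overlapped, and each pair was higher in Sox9cKO, by 0.18, 0.12 and 0.32 on the log2 scale. Replicate 2 was highest and replicate 3 lowest in each genotype, as in the endothelial sum. The part of endothelial RNA in the Smurf1 values was not tested. The Smurf1 log2 difference of 0.21 had a 95% interval of -0.11 to 0.53 (limma, adjusted p = 0.494). Its close relative Smurf2, no part of the 10 genes, was more abundant in reads (2092 ± 82 in Control and 2308 ± 180 in Sox9cKO, SD, n = 3) and differed by 0.14 on the log2 scale (limma, adjusted p = 0.567).

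Taking the 10 genes as a list, 0 passed an adjusted p of 0.05 with limma, against 2.97% of all tested genes, 2.03% higher and 0.939% lower. An unadjusted p under 0.05 was found for 2 of the 10 (Smad3 and Ski), against 17.8% of all tested genes, and the same 2 had groups that did not overlap, against 24.2%. Both shares were thus close to those of all genes. With the replicate block 1 of 10 passed (Smad3), against 8.05% of all tested genes. On the whole reads recovered from the table, edgeR called 0 of 10 (2.86% of all genes), edgeR with the block called 1 (6.76%) and DESeq2 called 1 (7.08%), and the gene was Smad3 each time. All 3 same-numbered pairs had one direction in 5 of the 10 genes (Smad1, Smad3, Smad6 and Smurf1 higher, Ski lower), against 48.5% of all genes. The median log2 fold change of the list was 0.15, with 6 genes positive and 4 negative, beside 0.04 over all tested genes. That list median fell to 0.02 without Sox9cKO replicate 2, to 0.03 without Control replicate 3 and to 0.04 with quantile normalization. By size without regard to sign, the Smad3 difference was larger than that of 84.0% of all tested genes, and that of Smad4 larger than only 2.62%.

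**Figure D3:**
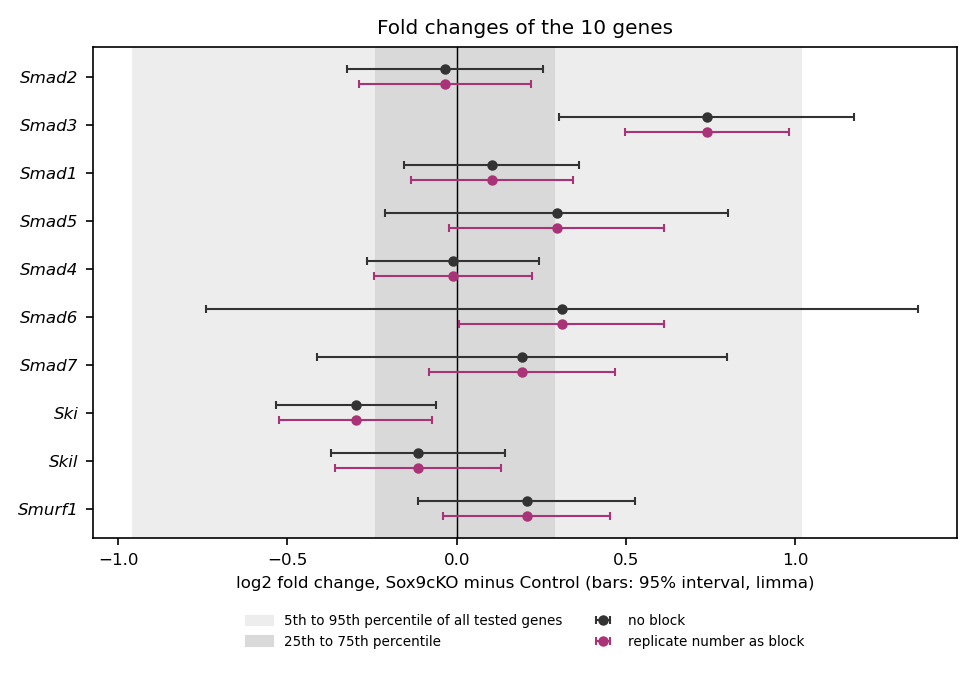
Log2 fold changes (Sox9cKO minus Control, horizontal axis) of the 10 genes with 95% intervals from limma, without and with the replicate number as a block; shaded bands give the 5th to 95th and 25th to 75th percentiles of all tested genes. The intervals of Smad3 and Ski stay on one side of 0 in both fits and that of Smad6 with the block alone, and the Smad3 value of 0.74 lies beyond the 75th percentile of 0.29.

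Levels were compared between the genes as normalized reads per kilobase of exon, with exon lengths from GENCODE M21. In Control the mean level per kilobase was 1108 for Smad3, 637 for Skil, 585 for Ski and 421 for Smad4. Smad7 followed at 205, Smad5 at 151, Smurf1 at 147, Smad1 at 130 and Smad2 at 127, and Smad6 was lowest at 92.0. The order was the same in Sox9cKO, where Smad3 stood at 1839, Skil at 589 and Ski at 475 per kilobase. In Control, Smad3 and Smad4 stood apart from their neighbours in this order, with no overlap between libraries. Skil and Ski overlapped each other, and from Smad7 down to Smad6 each gene overlapped the next. Among the 4 receptor-activated Smads tested, Smad3 made up 68.3%, 75.2% and 74.7% of the summed level per kilobase in Control replicates 1 to 3, against 80.1%, 79.8% and 80.7% in Sox9cKO. Smad2 made up 10.02%, 7.45% and 8.05% in Control and 5.67%, 5.59% and 5.10% in Sox9cKO. Neither share overlapped between the genotypes. The shares are parts of the same sum, so a higher Smad3 share goes with lower shares of the others. The Smad2 level itself overlapped between the genotypes. These shares were chosen after the values were seen and get no test. They depend on the exon lengths used, as reads are shared over isoforms of unequal length.

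**Figure D4:**
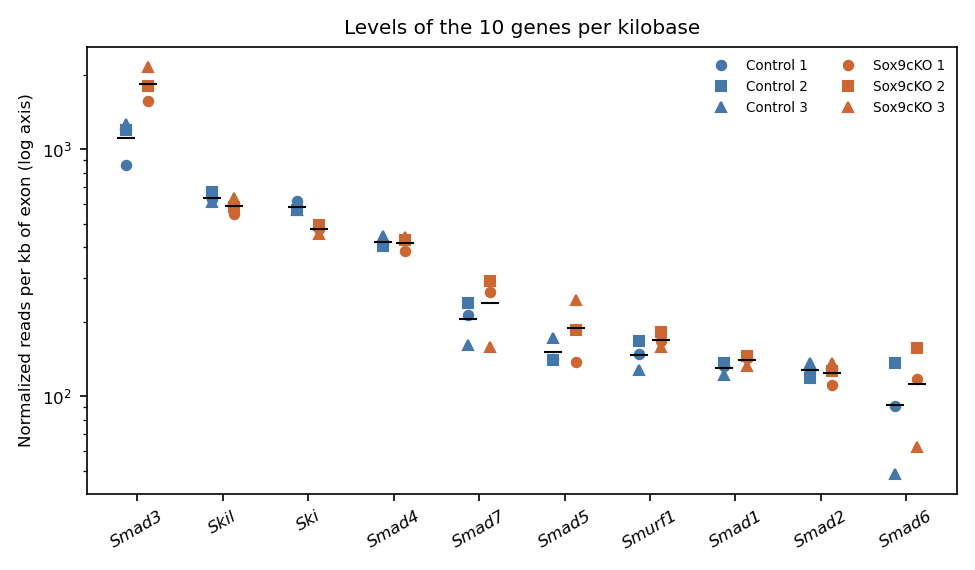
Normalized reads per kilobase of exon (log axis) of the 10 genes in each of the 6 libraries, ordered by the Control mean; black marks are group means. Smad3 is highest in both genotypes (means 1108 and 1839), and Smad6 has the lowest mean and the widest spread in both.

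Spread within a genotype differed among the genes. On the log2 scale the SD over the Control libraries was 0.07 for Ski, Skil and Smad4, 0.08 for Smad1 and 0.10 for Smad2. It was 0.30 for Smad3, 0.29 for Smad7 and 0.75 for Smad6. The same genes were unsteady in Sox9cKO, with 0.22 for Smad3, 0.47 for Smad7 and 0.68 for Smad6, joined by Smad5 at 0.42. A log2 difference of the size seen for Smad3 would have been well outside the interval of Smad2, Smad4, Smad1, Skil or Smurf1, but inside those of Smad5, Smad6 and Smad7.

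For the 3 genes with the smallest p-values, the transcripts with the most similar pattern over the 6 libraries were listed by Pearson correlation of log2 values among 9407 transcripts. Closest to Smad3 were Plat (r = 0.999), which encodes tissue plasminogen activator, Ankrd50 (0.994) and Myo19 (0.993). Plat had 1312, 2744 and 3337 normalized reads in Control and 5126, 7509 and 10160.5 in Sox9cKO, so it shared both the gap between genotypes and the order of replicates. Its difference of 1.67 on the log2 scale did not pass without the block (limma, adjusted p = 0.0721) and passed with it (limma, adjusted p = 0.00123). Closest to Ski were Arid1a (0.995), Scara3 (0.994) and Pola1 (0.993), and closest to Smurf1 were Adamts7 (0.997), Masp1 (0.993) and Rasa3 (0.991). With 6 libraries that share genotype and replicate number, high values are common: 274 transcripts had r above 0.9 with Smad3, 219 with Ski and 361 with Smurf1.

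The rest of the pathway was read from lists of ligands, antagonists, receptors, other Smad regulators and targets. Of 106 such genes outside the 10, 85 could be tested and 12 passed, 9 higher and 3 lower in Sox9cKO. That was 14.1% of those tested, against 2.97% of all tested genes. With the replicate block 22 passed, and the share of all tested genes also rose, to 8.05%. These lists were written with results of these data already known, so the shares of pathway genes are a description. Among ligands and antagonists, Inhba, the activin A subunit (log2 fold change 2.19), and Fst, the activin trap follistatin (3.68), rose. Fstl3 (follistatin-like 3), on the same list of antagonists, went the other way and was lower in all Sox9cKO libraries (-0.81). It passed only with the block (limma, adjusted p = 0.0854 without it and 0.0441 with it). Nbl1, which encodes a BMP antagonist, rose from 93.2 ± 11.7 to 302 ± 80.7 normalized reads (SD, n = 3; limma, adjusted p = 0.0133), and Bmp1, listed with the ligands although its product is a protease, rose from 635 ± 39.9 to 1141 ± 169 (limma, adjusted p = 0.0285). Tgfb3 fell (-1.09), and no other listed ligand was called lower, with or without the block. With the block 6 of 16 ligands passed, against 3 without it. Of the 11 receptors tested, Tgfbr2 alone passed (1.14), with or without the block. Acvr1 was higher (0.23) and Acvr2a lower (-0.32) in all Sox9cKO libraries without passing.

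Of the 22 listed Smad2/3 targets outside the 10 genes, 4 passed, all higher in Sox9cKO (18.2%, against 2.97% of all tested genes). The log2 fold changes were positive for 15 and negative for 7, with a median of 0.62. Over all tested genes, 9293 were positive and 7860 negative, with a median of 0.04. Without regard to the threshold, 6 targets lay higher in all Sox9cKO libraries and 2 lower, namely Klf10 (-0.35) and Tagln (-0.83). Of all 17153 tested genes, 2296 lay higher and 1848 lower in this way, together 24.2%. Among the 4 that passed were Ltbp2 (4.72), the cell cycle inhibitor gene Cdkn2b and Fn1 (1.89). Cdkn2b had 10.9, 32.5 and 19.6 normalized reads in Control and 254, 212 and 165 in Sox9cKO (limma, adjusted p = 0.00687). Skil and Smad7, which belong to the same class of targets, gave no such gap, with log2 differences of -0.11 and 0.19. Pmepa1, a Smad-induced feedback gene, had means of 1062 ± 133 and 1799 ± 425 (SD, n = 3) and passed only with the block (limma, adjusted p = 0.106 without it and 0.0205 with it).

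Of the 8 tested BMP-Smad targets outside the 10 genes, 7 had negative log2 fold changes, with a median of -0.56. Of all 17153 tested genes, 7860 were negative. In this list 1 gene passed (12.5%, against 2.97% of all tested genes). That gene, Atoh8, a transcription factor gene induced by BMP signalling, fell from 339, 232 and 199 normalized reads in Control to 28.9, 29.3 and 27.2 in Sox9cKO (log2 fold change -3.09; limma, adjusted p = 0.00247). Smad6 and Smad7, also BMP targets, had positive log2 differences that did not pass. Among 23 tested Smad regulators outside the 10, Tgif2, a corepressor of Smad2 and Smad3, was the only one to pass without the block, falling from 252 ± 25.5 to 145 ± 10.03 (SD, n = 3; limma, adjusted p = 0.0458). That was 4.35% of these regulators, near the 2.97% of all tested genes. The median of this list was -0.02. The replicate block called 8.05% of all tested genes. With it 6 of the 23 regulators passed, 3 higher and 3 lower, and 3 of the 8 BMP-Smad targets, all lower. Bambi, a decoy receptor gene on both lists, was among them (log2 fold change -1.04; limma, adjusted p = 0.0991 without the block and 0.0140 with it), as was Id2 among the BMP-Smad targets (-0.67; limma, adjusted p = 0.151 and 0.0188).

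**Figure D5:**
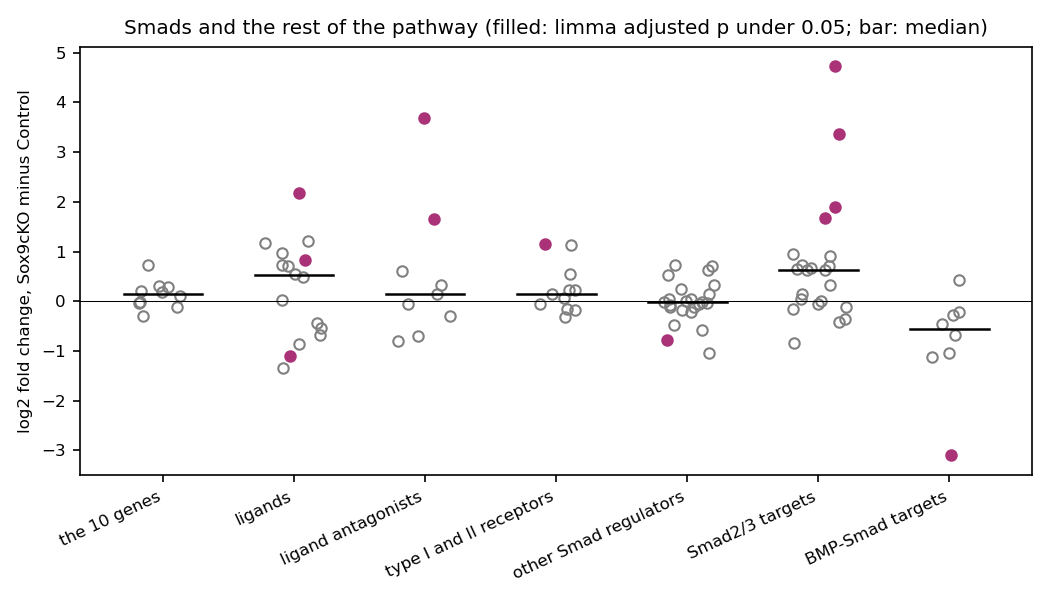
Log2 fold changes (Sox9cKO minus Control, vertical axis) of the 10 genes and of the other tested pathway genes by list; each circle is a gene, filled where limma's adjusted p is under 0.05, and bars are list medians. The 10 genes lie between -0.30 and 0.74 and none is filled, while 4 of the Smad2/3 targets are filled above 0 and 1 BMP-Smad target, Atoh8, is filled at -3.09; a gene on more than one list is drawn on each.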

How the data were processed

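Libraries were stranded, made from total RNA and carried unique molecular identifiers, per the labels' protocols. The authors deposited normalized counts, a signal per gene and library. Per the submitters' processing notes, DESeq2 1.36.0 and genome build GRCm39 were used. The aligner, the counter, the annotation, the use of molecular identifiers and of the strand are not given in the sources used here. Every deposited value was a whole multiple of a step of its library (100% whole at a tolerance of 0.001 reads), which gave whole reads back. The number in each sample title tied it to its column.

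Values were taken as log2(value + 1), and limma 3.58.1 (R 4.3.3) was fitted to the 17153 genes whose mean reached 10 normalized reads (intensity trend, two-sided, Benjamini-Hochberg over all tested genes, threshold 0.05); this pseudocount understates changes of low genes. Intervals are limma's 95% intervals, not adjusted for multiple tests. The 18 alternatives were TMM factors, quantile normalization, sample weights, a fit with no trend, a pseudocount of 0.1 or of 5, all genes unfiltered, a filter at a mean of 50, edgeR 4.0.16 and DESeq2 1.42.0 on the recovered reads, the replicate block in limma and edgeR, and 6 fits that each left out 1 library. The block without each same-numbered pair, and marker sums without the gene that adds most to the group difference, were added after seeing the data. Replicate numbers come from the sample titles. Same-numbered libraries deviated together from their group means (correlations across genes 0.207, 0.472 and 0.542), so the numbers were taken to pair the libraries. Differently numbered libraries gave -0.437 to 0.0476. Deviations from a mean of 3 libraries sum to 0, so these correlations depend on each other. The labels do not say that same numbers mean pairs, and the pairing rests on these same data. Exon lengths came from GENCODE M21 (GRCm38) by gene identifier for all 10 genes, and promoters from RefSeq (GRCm38.p6). No gene in that annotation overlapped one of the 10 on the other strand with reads in the table. The scripts were tested on simulated data. The 10 genes and all lists were chosen with earlier results of these data known. All 10 were named with every value. From each other list at most 4 genes that passed were named, by p-value, plus Smad9 and Smurf2; 1 gene that the rule names is not reported here. The 3 transcripts most like each of the 3 genes with the smallest p were named, among transcripts averaging 100 normalized reads or more. Plat's values, Pmepa1, Bambi, Id2, Klf10, Tagln, Acvr1, Acvr2a, Fstl3 and the ratios and shares were chosen after their values were seen.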

Additional observations from a re-analysis of the deposited data

How the results depend on the processing

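Smad3 kept its direction in all 18 alternatives (log2 fold change 0.57 to 0.85) and passed in 4, which were the replicate block, edgeR with the block, DESeq2 and sample weights. The number of the 10 genes called was 1 in those 4 and 0 in the others, the 6 fits without 1 library included, and it was 0 to 1 with the replicate block when a same-numbered pair was left out. Smad2 had a positive value in some fits without 1 library (range -0.0999 to 0.0429), as had Smad4 (-0.0490 to 0.0456), and Smad6 a negative one (-0.0877 to 0.683). Without pair 1 the blocked values were 0.0400 for Smad2 and 0.0325 for Smad4. Smad4 was 0.0165 with sample weights and Smad1 -0.0170 with quantile normalization. The 510 genes called in all became 1043 with sample weights, 1214 with DESeq2, 1381 with the replicate block, 1160 with edgeR and the block, 199 to 387 without 1 library, and 973, 1556 and 234 with the block without pair 1, 2 or 3. The 12 pathway genes became 19 with DESeq2, 22 with the replicate block, 19 with edgeR and the block, 6 to 10 without 1 library and 17, 28 and 5 with the block without pair 1, 2 or 3. The cause was not tested. The block changed no call of the 10 genes other than that of Smad3. Smad6, with 135 to 532 reads a library, had the largest counting error of the 10.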
